A study of Mus musculus with 27 samples.

Results

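Acetylation of histone H3 at lysine 9 (H3K9ac) was mapped in cultured mouse primary hepatocytes, and the regions described here are the 523 of 6513 normoxia peaks (8.03%) that share no base with any peak called after hypoxia-reperfusion (HR) in wild-type (WT) cells. They were selected on measured peak positions, so their absence from the WT HR list is how they were chosen and not a finding. The other 5990 normoxia peaks, which share at least 1 base with a WT HR peak, are called kept. The 8 peak lists of the study hold 54935 peaks in all.

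The groups were KO HR hepatocytes from Alb-cre:Aclyf/f mice, WT HR hepatocytes and WT normoxia hepatocytes, put into their culture condition 24 hours after isolation. Alb-cre drives the recombinase from the albumin promoter, which is active in hepatocytes, and removes the floxed part of Acly there. There was no KO normoxia list, so an effect of genotype and an effect of HR in KO cells cannot be told apart. Each antibody and condition had 1 library, so no difference between conditions has a replicate check, no test between conditions was made, and intervals below cover counting error over peaks only. The 16 liver RNA libraries and the 3 IgG control samples were not used here.

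Acetyl groups on histone tails come from acetyl-CoA, which ATP citrate lyase (ACLY) makes from citrate outside mitochondria. H3K9ac is found mainly on nucleosomes beside active gene starts, and H3K27ac at active starts and at enhancers. In hepatocytes both marks are prominent at genes for clotting factors, bile acid enzymes and lipid metabolism. In a pool of cells, fewer cells with the mark and less mark per cell cannot be told apart.

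The cell label was checked against marker genes, with a gene counted as marked when a peak touched it or the 1 kb on either side. H3K9ac in WT normoxia marked 17 of 22 hepatocyte genes, 1 of 12 Kupffer and immune genes (Cd68), 2 of 10 cholangiocyte genes, and 0 of 12 endothelial and 0 of 12 stellate and fibroblast genes. None of the 17 marked hepatocyte genes was without H3K9ac in WT HR, although a lost peak lay in Prox1, a homeobox factor of hepatocytes that kept another H3K9ac peak. The KO lists were not made like the WT lists: 1.01% of KO HR H3K9ac peaks and 0.943% of KO HR H3K27ac peaks have both ends on a grid of 10 bp, against 100.0% of each WT acetylation list. A difference between KO and WT lists therefore cannot be told apart from a difference in how the lists were made.

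Sequences at gene starts inside lost peaks are shown first because lost peaks with and without H3K27ac differed in them. Each run below is 300 bases of a RefSeq promoter window (GRCm38.p6), from 250 bases before to 50 bases after an annotated start, read 5′ to 3′ on the gene's strand. Capitals mark CG dinucleotides. In each set they belong to the 4 lost peaks of largest total signal that hold such a start, with the start nearest the peak's maximum taken where a peak holds several; this choice was made after the values were seen. The first set had H3K27ac in all 3 conditions. It comprises Lipc (hepatic lipase, chr9:70934759-70935058, minus strand, at a start inside the annotated gene), Gna12 (a G protein alpha subunit, chr5:140830382-140830681, minus strand), Fga (the fibrinogen alpha chain, chr3:83025903-83026202, plus strand) and F5 (coagulation factor V, chr1:164151585-164151884, plus strand).
Lipc: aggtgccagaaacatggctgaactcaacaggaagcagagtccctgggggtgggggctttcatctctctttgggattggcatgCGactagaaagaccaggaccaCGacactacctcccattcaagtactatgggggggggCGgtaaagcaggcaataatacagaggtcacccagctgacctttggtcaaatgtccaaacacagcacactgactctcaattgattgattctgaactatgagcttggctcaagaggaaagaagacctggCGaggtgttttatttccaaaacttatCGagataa
Gna12: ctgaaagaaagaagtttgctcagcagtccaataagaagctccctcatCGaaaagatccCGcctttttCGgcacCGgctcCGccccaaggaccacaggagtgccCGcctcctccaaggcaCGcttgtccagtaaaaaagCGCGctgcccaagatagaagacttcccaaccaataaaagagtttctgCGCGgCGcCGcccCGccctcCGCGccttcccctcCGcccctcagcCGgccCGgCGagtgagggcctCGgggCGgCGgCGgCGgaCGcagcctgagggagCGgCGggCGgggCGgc
Fga: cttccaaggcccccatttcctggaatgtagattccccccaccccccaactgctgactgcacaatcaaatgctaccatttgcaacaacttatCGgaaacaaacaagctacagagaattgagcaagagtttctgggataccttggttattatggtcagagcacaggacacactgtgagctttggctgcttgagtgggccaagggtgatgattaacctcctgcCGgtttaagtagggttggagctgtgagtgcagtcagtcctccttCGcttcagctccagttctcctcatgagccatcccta
F5: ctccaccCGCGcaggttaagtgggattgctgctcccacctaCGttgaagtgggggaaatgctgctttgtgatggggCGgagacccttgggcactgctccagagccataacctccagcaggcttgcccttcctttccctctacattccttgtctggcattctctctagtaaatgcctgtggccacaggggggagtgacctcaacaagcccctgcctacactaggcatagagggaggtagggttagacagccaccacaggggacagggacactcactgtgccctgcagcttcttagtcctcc

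The CG count was 5 in the Lipc window, 3 in Fga and 4 in F5, against 30 in Gna12, so 3 of the 4 windows were poor in CG. The Fga window holds the C/EBP motif searched here, and the Lipc, Gna12 and F5 windows hold a GC box. The Lipc and Gna12 windows also hold a CCAAT motif.

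The second set had no H3K27ac in WT normoxia. It comprises Flot2 (a flotillin of membrane rafts, chr11:78037681-78037980, plus strand), Arrdc2 (an arrestin-domain protein, chr8:70839671-70839970, minus strand), Kif24 (a kinesin, chr4:41464799-41465098, minus strand) and Mrps16 (a protein of the small mitochondrial ribosomal subunit, chr14:20393441-20393740, minus strand).
Flot2: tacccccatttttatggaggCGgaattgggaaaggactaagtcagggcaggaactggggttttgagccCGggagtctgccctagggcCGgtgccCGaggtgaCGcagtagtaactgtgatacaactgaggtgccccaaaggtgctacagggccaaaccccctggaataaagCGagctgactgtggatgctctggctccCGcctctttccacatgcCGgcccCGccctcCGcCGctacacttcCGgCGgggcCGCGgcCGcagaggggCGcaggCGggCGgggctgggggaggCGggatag
Arrdc2: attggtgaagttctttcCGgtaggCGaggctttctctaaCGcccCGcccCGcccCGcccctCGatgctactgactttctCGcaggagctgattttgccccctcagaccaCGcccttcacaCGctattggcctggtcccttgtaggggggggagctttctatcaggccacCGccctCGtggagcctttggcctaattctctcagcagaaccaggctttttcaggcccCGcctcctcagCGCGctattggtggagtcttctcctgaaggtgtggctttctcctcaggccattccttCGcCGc
Kif24: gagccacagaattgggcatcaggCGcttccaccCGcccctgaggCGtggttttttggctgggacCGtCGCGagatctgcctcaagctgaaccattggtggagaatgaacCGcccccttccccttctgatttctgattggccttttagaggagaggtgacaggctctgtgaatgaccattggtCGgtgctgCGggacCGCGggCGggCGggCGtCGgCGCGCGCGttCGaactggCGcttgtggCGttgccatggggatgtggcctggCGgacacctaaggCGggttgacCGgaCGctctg
Mrps16: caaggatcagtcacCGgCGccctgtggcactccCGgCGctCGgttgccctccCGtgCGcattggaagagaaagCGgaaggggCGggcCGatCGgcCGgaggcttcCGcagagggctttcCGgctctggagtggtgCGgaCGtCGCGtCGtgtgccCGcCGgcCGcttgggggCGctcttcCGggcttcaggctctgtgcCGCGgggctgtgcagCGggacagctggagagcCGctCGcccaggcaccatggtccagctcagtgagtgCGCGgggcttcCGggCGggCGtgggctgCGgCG

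These windows held 20 CG in Flot2, 17 in Arrdc2, 26 in Kif24 and 36 in Mrps16, and all 4 hold a GC box and a CCAAT motif. The same contrast appeared over all windows in lost peaks. The 523 lost peaks include 123 that hold a start from the promoter table, with 161 windows of 137 genes. The 57 windows in lost peaks with WT normoxia H3K27ac had a median of 5 CG, with the 25th and 75th percentiles at 3 and 15, and the 104 windows in lost peaks without it had a median of 20, with these percentiles at 14 and 26.2. Kept peaks did not show this split: their median was 23 CG with H3K27ac (3636 windows) and 24 without (2354 windows). The median was 7 over 15112 windows in no normoxia H3K9ac peak and 13 over all 21263 windows.

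**Figure D1:**
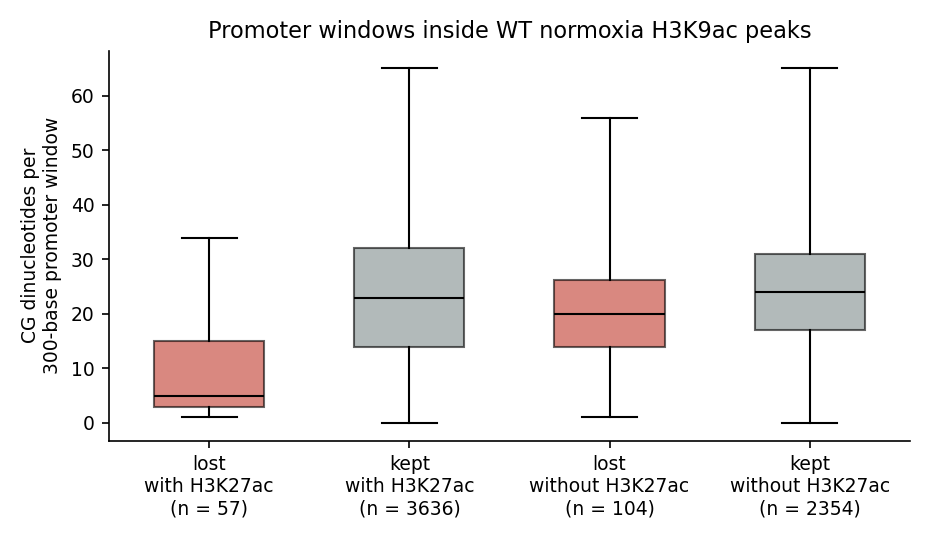
CG dinucleotides per 300-base promoter window (vertical axis) inside lost (red) and kept (grey) WT normoxia H3K9ac peaks, split by whether the peak overlaps a WT normoxia H3K27ac peak. Boxes span the 25th to 75th percentile, lines are medians and whiskers reach the lowest and highest windows; the lost windows with H3K27ac have a median of 5 and the other 3 groups medians of 20 to 24.

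The split was also present among peaks of like strength. The normoxia list was cut into 4 equal groups by total signal, group 1 the lowest. In group 1, lost windows had a median of 5.5 CG with H3K27ac (26 windows) and 19 without (84 windows). Kept windows there had medians of 20 (229 windows) and 24 (893 windows). In group 2 the lost medians were 5 with H3K27ac (25 windows) and 24 without (17 windows). The kept medians were 22 (529 windows) and 24 (848 windows). A window is a description of the annotation under a peak, and neighbouring starts of 1 gene share bases.

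Short motifs were counted on both strands of the same windows. A GC box (GGGCGG) was in 33.3% of windows of lost peaks with WT normoxia H3K27ac and 64.4% of windows of lost peaks without it, against 68.0% and 67.9% in kept peaks and 46.2% of all windows. The motif TTGCNNAA of the C/EBP factors, which act at many hepatocyte genes, was in 21.1% and 8.65% of lost windows with and without H3K27ac, against 8.2% and 6.92% of kept windows and 10.2% of all. The 21.1% stands for 12 of 57 windows. A TATA motif (TATAAA) was in 7.02% and 5.77% of lost windows and 6.52% and 5.1% of kept windows, and in 12.6% of all. CCAAT was in 36.8% and 43.3% of lost windows with and without H3K27ac, against 35.2% and 36.9% of kept windows and 38.2% of all windows. The forkhead (TGTTTAC), HNF1 (TTAATNATT), HNF4 (CAAAGTCCA) and CRE (TGACGTCA) motifs were each in 4 or fewer of the 161 lost windows and in 3.01%, 1.34%, 0.451% and 2.23% of all windows. The GC box holds a CG, so its count is not separate from the CG count.

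Lost peaks were shallow rather than narrow. Their maximum signal, the authors' value at the highest point of a peak, had a median of 24.9 (range 6.88 to 98.0) against 42.4 in kept peaks (6.59 to 413). The mean signal per base had a median of 5.57 in lost peaks and 8.68 in kept peaks, and the total signal 44436.4 and 64374.1. Width went the other way, with a median of 8370 bp in lost peaks (3020 to 35850 bp) and 7730 bp in kept peaks (2020 to 121760 bp). These values come from the contrast that chose the peaks and are given as a description.

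**Figure D2:**
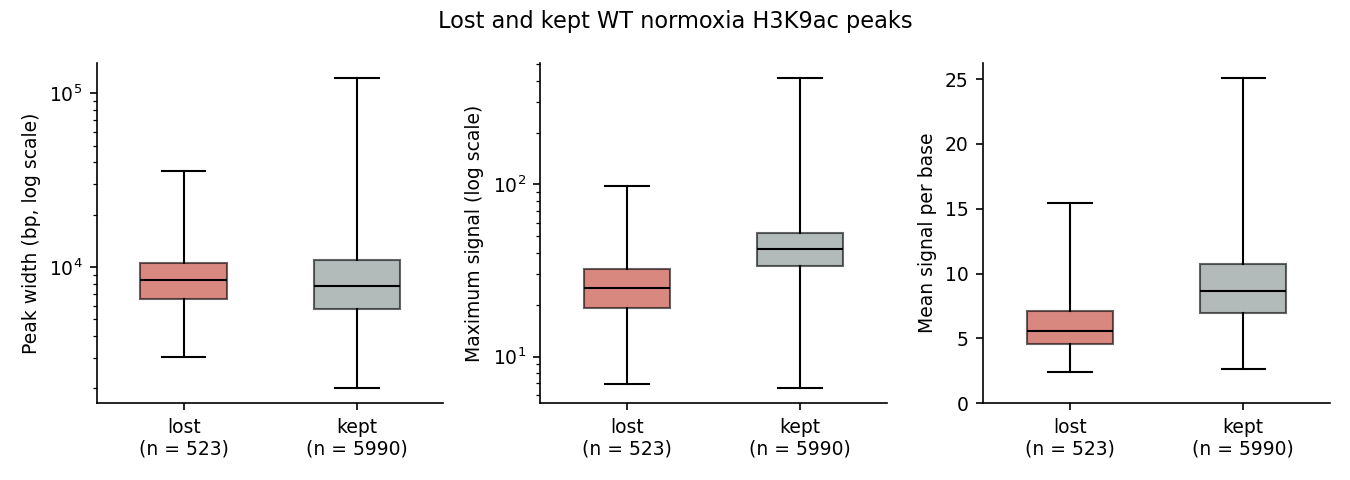
Width (bp, log scale), maximum signal (log scale) and mean signal per base (linear scale) of lost (red) and kept (grey) WT normoxia H3K9ac peaks. Boxes span the 25th to 75th percentile, lines are medians and whiskers reach the lowest and highest peaks; lost peaks have a median maximum of 24.9 against 42.4 in kept peaks, at a median width of 8370 bp against 7730 bp.

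Ranked by total signal, 475 of the 523 lost peaks (90.8%) lay below the list's median, and their median rank was 5357 of 6513, against 3034.5 for kept peaks. The highest-ranked lost peak stood at 282, and 4 of the 1000 strongest normoxia peaks were lost. With the list cut into 10 equal groups by total signal, 23.9% of peaks were lost in the lowest group and 0.307% in the highest. By maximum signal the range was wider, 39.6% in the lowest group and 0.155% in the highest. By width the share climbed to 11.7% among peaks 10090 to 11880 bp wide and was 4.26% in the narrowest group and 2.61% in the widest.

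**Figure D3:**
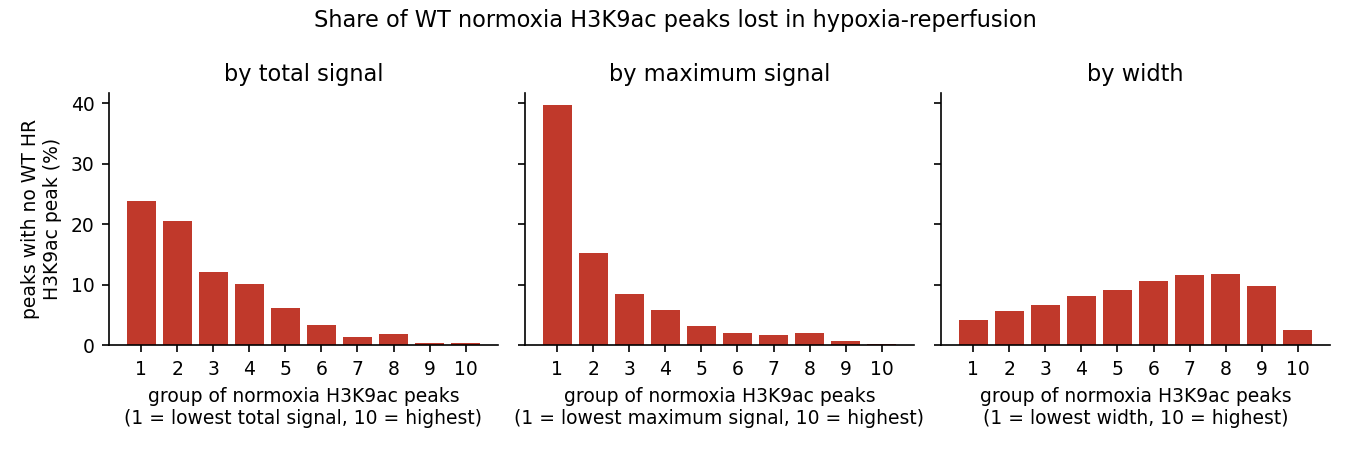
Share of WT normoxia H3K9ac peaks that are lost (vertical axis, percent) in 10 equal groups of the list by total signal, by maximum signal and by width (horizontal axes, 1 is the lowest). The share falls with signal, from 23.9% to 0.307% by total and from 39.6% to 0.155% by maximum, and is highest by width in group 8, at 11.7%.

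The lists hold only regions above a minimum total signal, 29864.6 in WT HR and 37767.1 in WT normoxia, so a lost peak had no called peak in WT HR and may still carry signal there. Counting a peak as lost when under 50% of its bases lay in WT HR peaks gave 997 peaks. Shortening the 7593 WT HR peaks to the 6513 of largest total signal, as many as in normoxia, gave 857, and taking only normoxia peaks at or above the median total left 48.

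The rule sets every distance from a lost peak to a WT HR H3K9ac peak above 0, and these distances are a description. The nearest WT HR H3K9ac peak was a median of 24520 bp away, with 11 of 523 within 1 kb, 65 within 5 kb and 87 beyond 100 kb. The 3 nearest were chr11:120535821-120547190, which runs past an end of Gcgr (the glucagon receptor gene) and lies 30 bp from a WT HR peak, chr16:45976581-45987770 at 160 bp, and chr1:134059221-134068610 at 370 bp. The 3 farthest were chrX:109132471-109141310 at 2941120 bp, chr13:27727601-27736400 at 1212430 bp and chr2:67879431-67884590 at 975550 bp. On the other side of the rule, the kept peaks with the fewest shared bases shared 260, 540 and 1160 bp with a WT HR peak. The median kept peak had 86.7% of its bases in WT HR peaks, and 474 of the 5990 had under 50%. Over the autosomes and X, the lost share per chromosome ran from 5.61% on chromosome 5 to 11.1% on chromosome 9.

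Lost peaks lay away from gene starts. A start of a coding gene from the promoter table was inside 123 of 510 lost peaks (24.1%, 95% Wilson interval 20.6 to 28.0) and 4077 of 5809 kept peaks (70.2%, 69.0 to 71.3), counting only chromosomes that the table covers. Another 53.3% of lost peaks and 24.1% of kept peaks lay in a coding gene or within 1 kb of it without a start, and 22.5% and 5.75% lay farther from every coding gene. The difference was present in each of the 4 groups by total signal: 26.7% of lost and 68.2% of kept peaks in group 1 held a start, and 18.9% and 70.6% in group 3. The table lacks starts for some genes, Amacr among them. With either end of any coding gene counted in place of a start, the shares were 29.1% of all lost peaks and 77.2% of all kept peaks. Exons and introns were not annotated in the tables used here.

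Most lost peaks carried H3K27ac, in every condition. A KO HR H3K27ac peak overlapped 448 of the 523 (85.7%, 82.4 to 88.4), a WT HR peak 401 (76.7%, 72.9 to 80.1) and a WT normoxia peak 404 (77.2%, 73.5 to 80.6). The shares of kept peaks were 92.2%, 83.4% and 64.7%, and those of all normoxia H3K9ac peaks 91.7%, 82.8% and 65.7%. All 3 conditions had H3K27ac at 379 lost peaks (72.5%), against 64.1% of kept peaks. Of the 404 lost peaks with H3K27ac in WT normoxia, 398 (98.5%) had it in KO HR and 382 (94.6%) in WT HR; for kept peaks these shares were 99.7% and 99.3%. Where a lost peak had H3K27ac, the median cover was 76.6% of it in KO HR, 95.8% in WT HR and 100.0% in WT normoxia. Kept peaks were covered to a like degree, with medians of 75.5%, 93.5% and 98.8%.

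The H3K27ac lists are of unequal length, with 14418 peaks in KO HR, 8252 in WT HR and 5655 in WT normoxia. With the first 2 shortened to the 5655 of largest total signal, a setting added after the data were seen, the shares of lost peaks were 59.1% in KO HR and 65.0% in WT HR, against 61.2% and 68.9% of kept peaks. In WT normoxia the gap between lost and kept peaks was wider at low signal than at high signal. In group 1 by H3K9ac total signal 69.9% of lost peaks (64.7 to 74.6) and 31.0% of kept peaks (28.6 to 33.6) had WT normoxia H3K27ac, and in group 2 88.8% and 48.5%. In group 4 all 10 lost peaks had it, with 95.4% of kept peaks. With lost peaks defined against the shortened WT HR H3K9ac list, the shares over all peaks were 68.4% of lost and 65.3% of kept peaks. With lost peaks defined by under 50% covered bases they were 66.0% and 65.7%, so the difference over all peaks was nearly gone.

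**Figure D4:**
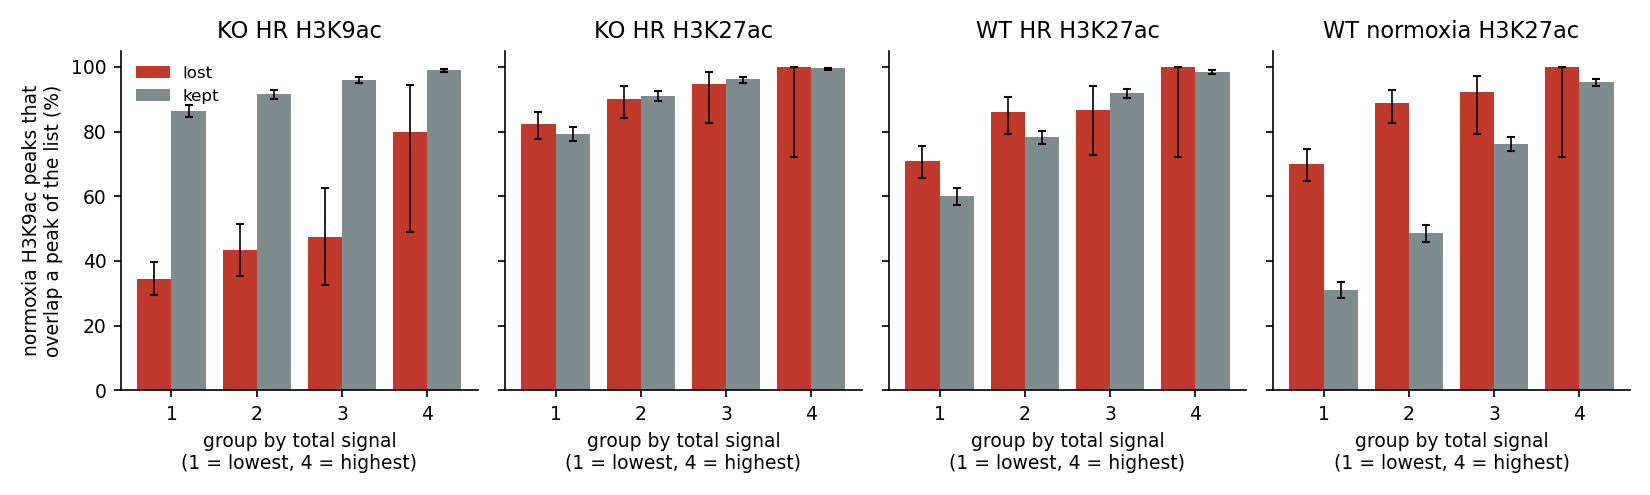
Share of lost (red) and kept (grey) WT normoxia H3K9ac peaks that overlap a peak of 4 other lists (vertical axis, percent), in 4 equal groups of the normoxia list by total signal (horizontal axis, 1 is the lowest). Bars are shares and error bars 95% Wilson intervals for counting error; the largest gap with lost peaks below kept peaks is in KO HR H3K9ac, 34.3% against 86.5% in group 1, and in WT normoxia H3K27ac lost peaks stand above kept peaks, 69.9% against 31.0% in group 1.

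Lost and kept peaks without H3K27ac also differed. Of the 119 lost peaks that had none in WT normoxia, 19 (16%) had a WT HR H3K27ac peak, against 54.1% of 2113 such kept peaks. H3K27ac differed by position as well. Among lost peaks with no start inside, 91.5% had H3K27ac in KO HR, 86.0% in WT HR and 88.6% in WT normoxia. For kept peaks with no start these shares were 93.9%, 88.5% and 77.4%, so lost peaks stood higher only in WT normoxia. Among lost peaks with a start, the shares were 66.7%, 45.5% and 39.8%, against 91.5%, 81.3% and 59.4% of kept peaks with a start.

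KO HR cells had an H3K9ac peak at 202 of the 523 lost regions (38.6%, 34.5 to 42.9) and at 93.7% of kept regions. Over all normoxia H3K9ac peaks, 10.7% had no KO HR H3K9ac peak. Both comparisons start from the same normoxia list, so the overlap is given as a description. The share among lost peaks was 34.3%, 43.4%, 47.4% and 80.0% in groups 1 to 4 by total signal, with 8 of 10 peaks in group 4. Kept peaks ran from 86.5% to 99.1%. With the 8837 KO HR peaks shortened to the 6513 of largest total signal, the shares were 18.0% of lost and 84.9% of kept peaks. With lost peaks defined by under 50% covered bases, the KO HR shares were 63.6% of lost and 93.9% of kept peaks.

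Where KO HR did have a peak, it was a part of the lost region. KO HR H3K9ac peaks covered a median of 38.1% of the lost peak, and the largest of them had a median rank percentile of 25.4 in the KO HR list, where 100 is the strongest. At kept peaks the medians were 48.4% and 66.2. KO HR H3K9ac peaks are narrow in general, with a median width of 2961 bp, against 6400 bp in WT HR and 7790 bp in WT normoxia. A KO HR H3K9ac peak was present at 41.3% of lost peaks with WT normoxia H3K27ac and 29.4% of those without. For kept peaks these shares were 95.3% and 90.7%. A KO HR H3K9ac peak was present at 43.9% of lost peaks with a start and 37.0% of those without one. Kept peaks went the same way, with 95.1% and 90.4%. The most common pattern over the 4 other lists was H3K27ac in all 3 conditions with no KO HR H3K9ac peak, at 216 lost peaks (41.3%), against 2.8% of kept peaks. The next was H3K27ac in all 3 with KO HR H3K9ac, at 163 (31.2%), against 61.3% of kept peaks.

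Of the 12 lost peaks of largest total signal, 8 lay in a coding gene. All 12 had H3K27ac in the 3 conditions, and 10 of them had KO HR H3K9ac. Strong kept peaks mostly had these marks too. In group 4 by total signal, 99.6% of kept peaks had H3K27ac in KO HR, 98.5% in WT HR and 95.4% in WT normoxia. KO HR H3K9ac was at 99.1% of them. The largest lies within Igf1, which encodes the growth factor that liver secretes under growth hormone (chr10:87877671-87913520, 35850 bp, total signal 174534, rank 282). KO HR had 3 narrow H3K9ac peaks there, 3565, 3656 and 2954 bp wide, which covered 28.4% of it. The nearest WT HR H3K9ac peak was 9820 bp away and touched the same gene. The second lies in Lipc (chr9:70920341-70944300, 23960 bp, total signal 167446, rank 329) and had 1 KO HR H3K9ac peak of 2135 bp.

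Insr, the insulin receptor gene, held the eighth of these peaks (chr8:3210861-3226300, rank 1466), with a KO HR H3K9ac peak of 3269 bp inside it. Others lay within Pdlim5, a cytoskeletal adaptor (rank 1274), Cdk17, a kinase (rank 1701), and Trak1, a mitochondrial transport adaptor (rank 1718). Those outside genes included one 5087 bp from Tgfa, a ligand of the epidermal growth factor receptor (rank 715), one 3374 bp from Ttpal (rank 1338) and 2 more than 30 kb from any coding gene.

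Other strong lost peaks had no KO HR H3K9ac. The largest such peak lies within Ppara, which encodes the nuclear receptor that drives fatty acid oxidation genes (chr15:85770241-85781990, 11750 bp, total signal 114418, rank 892). H3K27ac peaks at this place were 11583 bp wide in KO HR, 15130 bp in WT HR and 19870 bp in WT normoxia. Ppara held a second lost peak, from -34.33 to -27.04 kb of the centre of this one. The gene kept H3K9ac elsewhere in WT HR, 29070 bp from the larger lost peak and next to the second, with an end at -34.94 kb. Others were within Slc3a1, a subunit of a cystine and basic amino acid transporter (rank 1467), Grin2b, a glutamate receptor subunit (rank 2209), and Ern1, the endoplasmic reticulum stress sensor (rank 2244). The 4 peaks given here with a rank had H3K27ac in the 3 conditions.

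**Figure D5:**
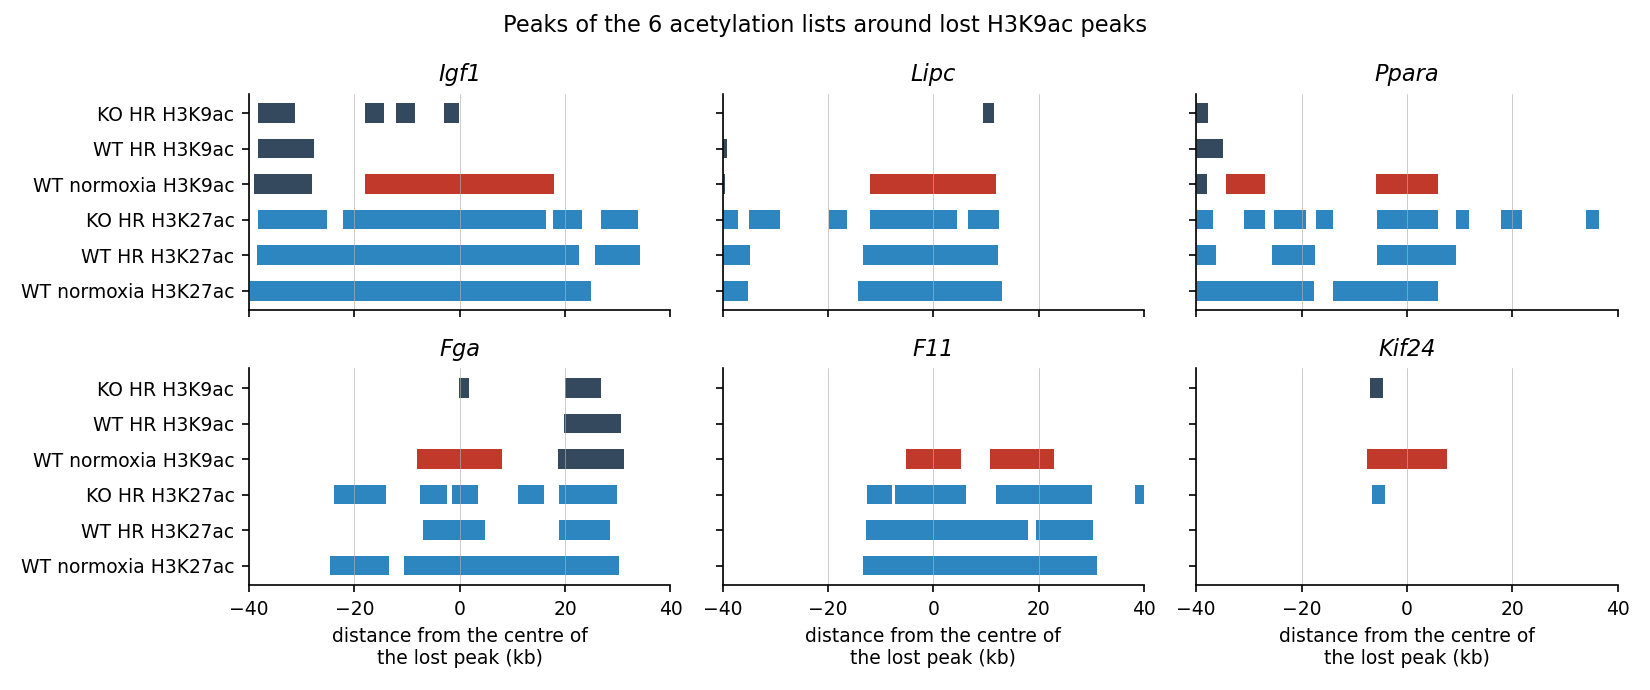
Peaks of the 6 acetylation lists (rows) within 40 kb of the centre of a lost H3K9ac peak (horizontal axis, kb) at Igf1, Lipc, Ppara, Fga, F11 and Kif24. Lost peaks are red, other H3K9ac peaks dark and H3K27ac peaks blue; the WT HR H3K9ac row is empty at each red bar, the central lost peak has H3K27ac in all 3 conditions except at Kif24, and KO HR H3K9ac covers a part of it at Igf1, Lipc, Fga and Kif24.

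At the other end, 56 lost peaks (10.7%) overlapped no peak of the other 4 lists, against 1.85% of kept peaks. The strongest of these lay within Cog4, a Golgi tethering subunit (chr8:110854121-110874430, rank 3005). The next 5 lay at Dnajc9, Mrps16 and Cfap70 (rank 3953), Arrdc5 and Uhrf1 (rank 4065), Gins4 and Golga7 (rank 4307), Fosl1, Ccdc85b and Fibp (rank 4398), and Agrn (rank 4404). Acly itself held such a peak (chr11:100479591-100488810, 9220 bp, rank 6463 of 6513) and had H3K9ac elsewhere in the gene in WT HR and KO HR. An H3K9ac peak in the gene checks nothing about the deletion.

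Counted by gene, 6982 of 21887 coding genes had an H3K9ac peak in the gene or within 1 kb in WT normoxia, and 317 of these (4.54%) had none in WT HR. A lost peak touched 205 of the 317, and the other 112 were touched only by kept peaks whose shared bases lie outside the gene. A further 239 genes had a lost peak and H3K9ac elsewhere in WT HR. For comparison, 1296 genes had H3K9ac in WT HR and none in WT normoxia. Of the 205 genes, KO HR had H3K9ac at 83 (40.5%), and H3K27ac was at 135 in KO HR (65.9%), 102 in WT HR (49.8%) and 89 in WT normoxia (43.4%). Of the 6665 genes with H3K9ac in both WT conditions, 92.7% had KO HR H3K9ac, and 91.4%, 82.9% and 63.9% had H3K27ac in KO HR, WT HR and WT normoxia. Counted by gene, WT normoxia H3K27ac was thus less frequent on the lost side (43.4% against 63.9%), whereas counted by peak it was more frequent (77.2% against 64.7%). With normoxia peaks at or above the median only, 96 of 3998 genes had none in WT HR, and with the shortened WT HR list 569 of 6982.

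Of 741 genes in 40 lists of pathways and cell functions, 737 were found in the annotation, 441 had H3K9ac in WT normoxia and 28 of these had none in WT HR. Counts below are set beside the 4.54% over all marked genes. They come from the same peak lists that the rule used. The gene lists were chosen with earlier results of these data known, so the counts are a description. The clotting cascade, made largely by hepatocytes, had 6 of 18 marked genes (33.3%) without a WT HR peak: F5, F11 (coagulation factor XI), Fga, Serpinc1 (antithrombin), Serpinf2 (the plasmin inhibitor) and Klkb1 (plasma prekallikrein). F11 and Klkb1 are neighbours and share a lost peak (chr8:45260141-45270710, rank 3248). Klkb1 holds a second, weaker lost peak (chr8:45276141-45288260, rank 5319), which F11 does not share. All 6 had H3K27ac in the 3 conditions. F5, Fga and Serpinc1 had H3K9ac in KO HR, and F11, Serpinf2 and Klkb1 did not. Over the whole list KO HR had H3K9ac at 15 of 26 genes, WT HR at 12 and WT normoxia at 18.

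At Fga the lost peak (chr3:83018251-83034280, total signal 76115.7, rank 2238) covers the whole gene, and at F5 it covers the start (chr1:164151091-164164510, total signal 71317.1, rank 2512). At Serpinc1 it was weaker (chr1:160976491-160983970, total signal 49381.1, rank 4662), and at Serpinf2 weaker still (chr11:75436871-75445170, total signal 40431.4, rank 6017).

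Bile acid genes had 4 of 11 marked members (36.4%) without one. These were Abcb11, the bile salt export pump (chr2:69332921-69343960, rank 4395), Akr1d1, the steroid 5-beta-reductase (chr6:37531361-37544330, rank 3384), Hsd3b7, a steroid dehydrogenase of bile acid synthesis (chr7:127791991-127804970, rank 5303), and Amacr, a racemase of branched fatty and bile acids (chr15:10979921-10988180, rank 3627). Abcb11 and Amacr had H3K9ac in KO HR, and Akr1d1 and Hsd3b7 did not. All 4 had H3K27ac in KO HR and WT HR, and all but Hsd3b7 in WT normoxia. Complement genes had 3 of 14 (21.4%) without one: C1ra, a protease of the first component, C8a, a subunit of the membrane attack complex, and C4bp, a C4-binding regulator. C8a and C4bp had H3K9ac in KO HR and C1ra did not.

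Single members were without WT HR H3K9ac in other lists, among them Cyp2d9, a cytochrome P450 (1 of 6), and Fbp1 of gluconeogenesis (1 of 9). Ftcd of histidine breakdown (1 of 10) was also 1 of 4 marked periportal genes. Slc1a2, a glutamate transporter (1 of 13 solute carrier genes), was also 1 of 4 marked pericentral genes. Among fatty acid synthesis genes Thrsp, which responds to thyroid hormone, had a lost peak, and Pnpla3, a lipid droplet protein, was touched only by a kept peak (2 of 19). Among lipoprotein genes Apoa4 and Apoc1 were likewise touched only by kept peaks (2 of 20). Steap4 (1 of 11 iron genes), Tnip1 (1 of 13 NF-kB genes) and Xrcc1 (1 of 15 DNA repair genes) each had a lost peak. Nr4a1, Hspa1b and Irf9, 1 in each of the immediate early, heat shock and interferon lists, were touched only by kept peaks. Counts of 1 or 2 in lists this short are not read as a result about a list.

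In 22 of the 40 lists no marked gene was without WT HR H3K9ac, and 2 of these lists had no marked gene to begin with. Among the others were hepatocyte markers (0 of 17), acute phase genes (0 of 10), conjugation and export genes (0 of 15), cholesterol synthesis (0 of 18), glycolysis (0 of 18), NRF2 targets (0 of 18), respiratory chain genes (0 of 17), endoplasmic reticulum stress genes (0 of 17) and nuclear receptors (0 of 18). Hypoxia-inducible factor targets stood at 0 of 14. In lists this short, 0 is near the 4.54% over all marked genes and is not read as a list being spared. Growth hormone, insulin and growth factor genes stood at 0 of 16, although lost peaks lay in 5 of them: Igf1, Insr, Irs1 (an insulin receptor substrate), Met (the hepatocyte growth factor receptor) and Gcgr. Each of the 5 had H3K9ac elsewhere in WT HR. Over all 6982 marked genes a lost peak touched 444 (6.36%). Gene length was not taken into account in these counts, so the 5 are not read as a result about this list.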

How the data were processed

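Peaks were compared from the deposited CUT&RUN lists of primary hepatocytes, with groups taken from the sample titles. Each list gives the authors' peak positions with a total signal and a maximum signal, and signal was used only within a list because its normalization, like the aligner and the peak caller, was not given in the sources used here. Per the submitters' processing notes, the build was mm10 and the tools Trimmomatic and kallisto. Neither tool is taken here as the aligner or peak caller of the CUT&RUN lists. Overlap means at least 1 shared base. Genes were 21887 coding genes of the RefSeq annotation of GRCm38.p6 extended by 1 kb, and promoter windows came from RefSeq. Shares carry 95% Wilson intervals. Counts and medians were computed with Python 3.11.15, pandas 2.3.3, numpy 2.4.6 and scipy 1.17.1, after the overlap code was tested on simulated data. No test was made, since each condition has 1 library. Depth per library is unknown.

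The named peaks are the 12 of largest total signal, the 5 largest with and without KO HR H3K9ac, list members without H3K9ac in WT HR, and the 3 farthest and nearest to a WT HR peak. The members and lists were chosen with earlier results of these data known. RNA files identify transcripts without gene names and were not used here. Some named items of these rules are not reported here.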

Additional observations from a re-analysis of the deposited data

Results flagged for a closer look

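FLAG-tagged ACLY was mapped as well, and its WT HR list holds 3666 peaks. They overlapped 66 of the 523 lost H3K9ac peaks (12.6%, 95% Wilson interval 10 to 15.7), against 25.3% of kept peaks. The WT normoxia FLAG list holds 1 peak, which overlapped 0 of the 523 lost and 0 of the 5990 kept peaks. The 0 is therefore not particular to lost peaks. This signal comes from data outside the comparisons above and is given as a value. Each FLAG list is 1 library, and no source used here says how the cells came to carry the tag.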

How the results depend on the processing

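Defining lost peaks by a gap of more than 1 kb (512 peaks) or on autosomes and X only (523) left the counts, widths and shares near those reported. With a peak lost when under 50% of its bases are covered, there were 997 peaks with a median width of 9870 bp. Of these, 63.6% had KO HR H3K9ac and 66.0% WT normoxia H3K27ac, against 93.9% and 65.7% of kept peaks. Normoxia peaks at or above the median total signal gave 48 lost peaks with a median width of 11690 bp, and 96 genes lost H3K9ac. Of the 48, 54.2% had KO HR H3K9ac, against 97.6% of kept peaks in that setting. H3K27ac was at 95.8% in KO HR, 89.6% in WT HR and 93.8% in WT normoxia, against 97.9%, 95.2% and 85.9% of kept peaks. The WT HR H3K9ac list shortened to 6513 peaks gave 857 lost peaks with a median width of 7810 bp, and 569 genes. Of the 857, 52.5% had KO HR H3K9ac, 71.6% WT HR H3K27ac and 68.4% WT normoxia H3K27ac. Kept peaks in that setting stood at 94.8%, 84.5% and 65.3%. The other lists were also shortened to the length of the normoxia list of their mark, a setting added after the data were seen. This gave 18.0% for KO HR H3K9ac, 59.1% for KO HR H3K27ac and 65.0% for WT HR H3K27ac. Kept peaks stood at 84.9%, 61.2% and 68.9%. The fewer normoxia peaks or called peaks in these settings are part of their construction, and the cause was not tested further. Gene windows of 5 kb or the gene body alone gave 340 and 316 genes. Under each setting that redefined lost peaks or shortened a list, the share with KO HR H3K9ac was lower in lost than in kept peaks. No paired analysis was possible because each condition has 1 library and no result comes from a test. Leaving out a replicate was likewise not possible. A region under the minimum total signal of a list is counted as having no peak, which is a limit of every count here.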

Other observations

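Annotated miRNA hairpins were looked up in the lost peaks, since coding genes were the only genes counted above. Mir3060 on chromosome 11, Mir203 on chromosome 12 and Mir6715 on chromosome 19 lie inside lost peaks, and the annotation lists Gm51289 on the same stretch as Mir203. These are positions, with no measure of the miRNAs themselves.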
